A study of Mus musculus with 8 samples.

Results

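Fatty acid and sterol handling in liver macrophages is followed here through 7 genes: Pparg, Scd1, Acacb, Acot1, Pdk4, Stard4 and Ch25h. The authors' table lists 2386 genes, 77 of them without an adjusted p. The adjustment was worked out to cover 17531 genes, called the tested genes here. The 7 were picked by gene symbol from the listed genes, with earlier results of these data known. Their fold changes, standard errors (SE) and p-values therefore describe them and support nothing further. Libraries came from liver macrophages of C57BL/6 mice, 4 libraries from normal diet (ND) and 4 from western diet (WD). Age, sex, diet composition, feeding time and cell isolation are not stated in the sources used here. The table writes its groups WDV and NDV, with the V unexplained, and each was read as the group of that diet.

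Cells build fatty acids from acetyl-CoA, which acetyl-CoA carboxylases turn into malonyl-CoA, and desaturases then add double bonds to the finished chains. Malonyl-CoA also restrains the entry of fatty acids into mitochondria for oxidation. PPAR nuclear receptors bind fatty acids and switch on genes of their storage and use, while the SREBP factors raise sterol and fatty acid synthesis when cell sterol is low. In macrophages, 25-hydroxycholesterol made from cholesterol restrains SREBP processing and has antiviral and immune roles.

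The 250 bases before the RefSeq start site (GRCm38.p6) are shown for 1 gene that rose, Acot1, and 3 that fell, Acacb, Pdk4 and Ch25h, so that the DNA in front of genes moving in opposite directions can be read side by side. Capitals mark CCAAT and TATAAA on either strand (ATTGG and TTTATA are their reverse complements), and each sequence runs 5′ to 3′ toward its gene.
Acot1, chr12:84009252-84009501, plus strand: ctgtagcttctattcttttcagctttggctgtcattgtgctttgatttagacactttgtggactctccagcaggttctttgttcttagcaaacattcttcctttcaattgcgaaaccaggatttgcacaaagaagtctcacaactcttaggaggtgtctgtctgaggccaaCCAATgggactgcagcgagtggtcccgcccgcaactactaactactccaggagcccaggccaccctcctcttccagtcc
Acacb, chr5:114165268-114165517, plus strand: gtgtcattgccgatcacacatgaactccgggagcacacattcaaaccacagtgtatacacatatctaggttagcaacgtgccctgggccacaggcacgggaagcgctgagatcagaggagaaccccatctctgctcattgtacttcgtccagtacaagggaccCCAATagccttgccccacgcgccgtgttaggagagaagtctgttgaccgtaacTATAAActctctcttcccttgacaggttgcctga
Pdk4, chr6:5496279-5496528, minus strand: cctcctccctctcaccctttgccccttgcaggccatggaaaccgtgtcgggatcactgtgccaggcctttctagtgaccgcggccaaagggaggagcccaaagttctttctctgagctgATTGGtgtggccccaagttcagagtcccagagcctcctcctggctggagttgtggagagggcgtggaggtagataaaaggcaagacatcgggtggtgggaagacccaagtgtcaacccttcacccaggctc
Ch25h, chr19:34475149-34475398, minus strand: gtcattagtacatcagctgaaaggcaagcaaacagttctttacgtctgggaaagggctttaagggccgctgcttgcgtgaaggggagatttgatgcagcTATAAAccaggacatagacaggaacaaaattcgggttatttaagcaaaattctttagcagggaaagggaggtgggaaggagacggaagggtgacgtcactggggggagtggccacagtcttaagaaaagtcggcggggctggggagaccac

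CCAAT stood in the windows of Acot1, Acacb and Pdk4, and TATAAA in those of Acacb and Ch25h. In the Acacb window TATAAA ran from base -34 to -29, counting -1 as the last base before the start, whereas in the Ch25h window it ran from -151 to -146. Of 32851 RefSeq windows of the same length, 33.8% held CCAAT and 12.4% TATAAA on either strand. RefSeq gave Pparg 3 start windows, of which 2 held CCAAT and 1 held TATAAA. The E-box CACGTG, 2 spellings of the sterol response element, and AGGTCA repeats spaced by 1 base (the element that PPAR and RXR bind) or by 4 bases (the element that LXR and RXR bind) were found in none of the 7 windows of 5 genes. Among all windows CACGTG stood in 6.02%, the strict spelling of the sterol element in 0.0731%, its looser spelling, which includes the strict one, in 1.05%, and the AGGTCA repeats in 0.0335% and 0.0152%. These matches describe letters only. The Acacb window lies inside the annotated span of the gene, at a start downstream of its first, and which start the libraries used is not in the table. The windows of Scd1 and Stard4 were not analysed here.

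Of the 7 genes, Pparg, Scd1 and Acot1 were higher under western diet and Acacb, Pdk4, Stard4 and Ch25h were lower, and the authors' deposited table gives each an adjusted p below 0.05. At this limit it lists 11.4% of all tested genes, 3.0% as higher and 8.35% as lower. Because the 7 were taken from the list, nothing is read from their count. The median absolute log2 fold change of the 7 was 1.45, against 1.85 over all 1990 genes called in the authors' deposited table. By direction, it was 1.45 for the 3 higher genes against 1.34 over the 526 genes called higher. For the 4 lower genes it was 1.38, against 2.10 over the 1464 called lower. In a bulk preparation, fewer cells of a type and less RNA per cell cannot be told apart, and this holds for every value here.

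**Figure D1:**
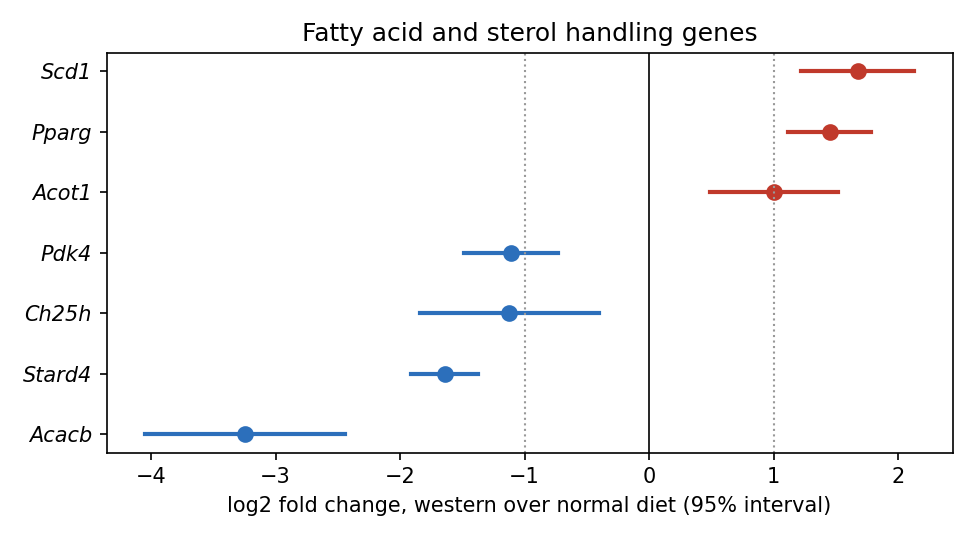
Log2 fold change (horizontal axis, western over normal diet) of the 7 genes, with bars for the 95% interval from the deposited SE and dotted lines at a 2-fold change either way. The intervals of Scd1, Pparg, Stard4 and Acacb lie wholly beyond 2-fold, and those of Acot1, Pdk4 and Ch25h cross it.

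Values of single libraries are not in the table, so each gene is given by its mean normalized count over all libraries and by the group means that this count and the fold change imply. The implied means assume that the mean was taken over 4 and 4 libraries and that the fold change is the ratio of the group means. They carry no replicate error, and whether the groups overlap cannot be read from them.

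Pparg encodes PPARgamma, the nuclear receptor that drives fat storage in adipocytes and lipid uptake programs in macrophages (ENSMUSG00000000440, chromosome 6, 115360951 to 115490399, mm10). Its mean normalized count was 215 in the authors' deposited table, which implies 115 under normal and 314 under western diet. The deposited rise was 2.73-fold (log2 1.45 ± 0.17 SE, 95% interval 1.12 to 1.78, adjusted p 3.26e-16 in the authors' deposited table). This placed it at rank 31 by p among the 706 genes with a positive fold change, so the rise was among the better resolved ones. Its SE was below the median of 0.21 over the 201 listed genes nearest in mean count, itself included. The relatives Ppara and Ppard were not listed. Among 12 receptors and coactivators of the PPAR and RXR group, Rxrg, a retinoid X receptor gene, was the other listed gene in the authors' deposited table, at log2 -2.93 ± 1.12 (adjusted p 0.0327) on a mean count of 3.09. A noncoding antisense gene, Gm44079, overlaps Pparg, and whether the libraries kept strand is not stated in the sources used here.

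Scd1 encodes the stearoyl-CoA desaturase that makes oleate and palmitoleate (ENSMUSG00000037071, chromosome 19, 44394455 to 44407879). Its mean count was 1529 in the authors' deposited table, with implied means of 729 under normal and 2329 under western diet. Per kilobase of exon the mean count was 313, the highest of the 7 and above 95.4% of the listed genes. Its 95% interval in the authors' deposited table ran from 1.22 to 2.13 on the log2 scale, or from 2.33-fold to 4.37-fold higher, with an adjusted p of 1.17e-11. Its SE of 0.23 was above the median of 0.20 over the 185 listed genes nearest in mean count. Of the desaturase genes Scd2, Scd3 and Scd4, Scd4 alone was listed in the authors' deposited table, at log2 1.38 ± 0.69 on a mean count of 5.78, and it did not pass (adjusted p 0.124). Scd4 lies within 100 kb of Scd1 and the family's sequences are alike, so how reads were divided among them is uncertain.

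Acacb encodes acetyl-CoA carboxylase 2, which makes the malonyl-CoA at the mitochondrial surface that holds back fatty acid import (ENSMUSG00000042010, chromosome 5, 114146535 to 114250761). It showed the largest change of the 7 on the lowest mean count, 23.5 in the authors' deposited table, with implied means of 42.6 under normal and 4.49 under western diet. The 95% interval of the fall in the authors' deposited table reached from 5.44-fold to 16.6-fold (log2 -3.25 ± 0.41, adjusted p 6.56e-14). The size of this fall exceeded that of 86.1% of the 1680 listed genes with a negative fold change. Its SE was close to the median of 0.40 for the 201 listed genes of like mean count. Acaca, which encodes the cytosolic carboxylase of fatty acid synthesis, was not listed. A processed pseudogene on the opposite strand, Gm13784, overlaps Acacb and was not listed either.

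Of 24 synthesis and desaturation genes, the authors' deposited table holds 6, of which 1 rose and 3 fell, and the other 18 were not listed. The gene that rose was Scd1, and Acacb was among those that fell, both picked from the listed genes. Over all tested genes the shares were 3.0% higher and 8.35% lower. Besides Scd1 and Acacb, those called were Thrsp, a lipogenic regulator (log2 -2.35 ± 0.46, adjusted p 3.10e-06 in the authors' deposited table), and Fads3, a member of the fatty acid desaturase family (-1.21 ± 0.21, adjusted p 1.46e-07). The elongase gene Elovl2 stands in the authors' deposited table at a log2 fold change of 1.39 ± 0.66 and did not pass (adjusted p 0.105). Fasn, Acly, Elovl6 and Srebf1, the core of the lipogenic pathway, were not listed, which means that they missed the p or fold limit or were not measured.

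**Figure D2:**
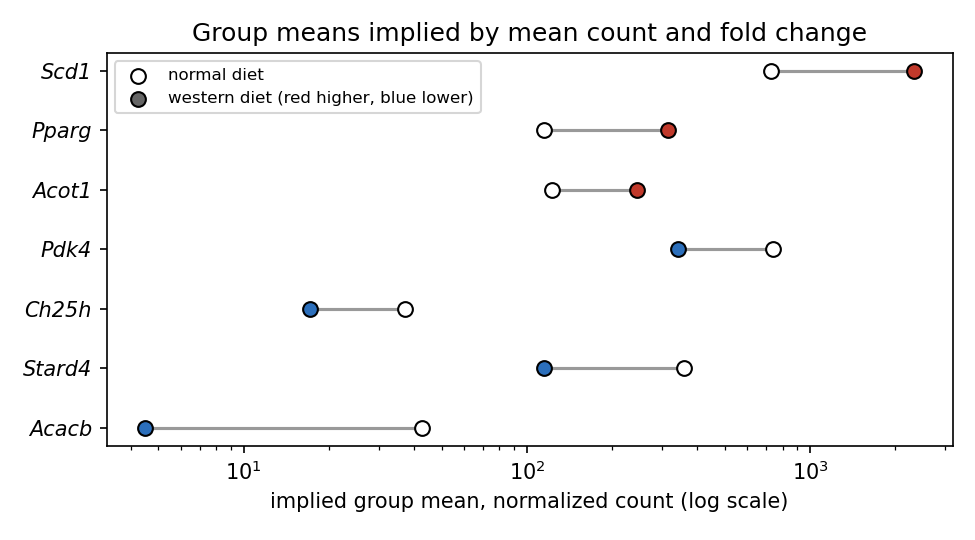
Implied mean normalized count (horizontal axis, log scale) of each of the 7 genes under normal diet (open points) and western diet (filled points, red for higher and blue for lower). Acacb spans the widest distance, from 42.6 to 4.49, and Scd1 sits highest, at 729 and 2329.

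Acot1 encodes a cytosolic thioesterase that splits long-chain acyl-CoA into free fatty acid and CoA and is a classic PPARalpha target in liver (ENSMUSG00000072949, chromosome 12, 84009490 to 84018371). Its mean count was 184 in the authors' deposited table, which implies 122 under normal and 245 under western diet. The rise of 2.003-fold (log2 1.002 ± 0.26, adjusted p 0.000934 in the authors' deposited table) stood at the edge of the listing, since only 5 listed genes had a smaller absolute fold change. Its 95% interval in the authors' deposited table ran from 1.40-fold to 2.86-fold. The SE was above the median of 0.22 for the 201 listed genes of like mean count. Of the 12 other Acot genes none was listed. Acot2, Acot3, Acot4, Acot5 and Acot6 lie within 100 kb of Acot1, and Acot2 is so similar in sequence that reads may have been shared, which leaves the value of Acot1 uncertain. The listed neighbours were Dnal1 and Numb, and the authors' deposited table puts their log2 fold changes at -1.22 and -1.18.

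Pdk4 encodes the kinase that shuts off pyruvate dehydrogenase and so turns cells from glucose toward fatty acid oxidation; it is also a PPAR target (ENSMUSG00000019577, chromosome 6, 5483351 to 5496309). With a mean count of 541 in the authors' deposited table, its implied means were 740 under normal and 342 under western diet. It fell 2.16-fold (log2 -1.11 ± 0.19, adjusted p 1.21e-07 in the authors' deposited table), with an interval from 1.66-fold to 2.81-fold lower. Of 14 genes of the pyruvate dehydrogenase complex, its kinases, phosphatases and the pyruvate carrier, Pdk4 was the only one listed. The neighbour within 100 kb, Asb4, was lower as well, and the authors' deposited table gives it a log2 fold change of -1.87 (adjusted p 5.78e-19).

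Of 32 fatty acid oxidation genes, Cyp4a10 and Cyp4a14, which encode fatty acid omega-hydroxylases of hepatocytes, rose and 30 were not listed, among them Cpt1a and Acadm. The mean counts of both were low in the authors' deposited table, 4.80 and 2.58, and their log2 fold changes were 4.06 ± 1.11 and 3.83 ± 1.44. In the same comparison 3 of 15 hepatocyte markers rose, and their part in the result was not tested. Of 20 uptake and activation genes, Gpihbp1, which carries lipoprotein lipase across capillary endothelium, was the only one listed, at log2 -3.10 ± 0.25 (adjusted p 2.15e-34) in the authors' deposited table. Of 25 triglyceride and droplet genes, 2 fell in the authors' deposited table: Mgll, the monoglyceride lipase gene (-2.48 ± 0.22, adjusted p 9.76e-28), and Fitm2, a lipid droplet biogenesis gene (-1.14 ± 0.36, adjusted p 0.00893). Cidec, a droplet fusion gene, was listed in the authors' deposited table at log2 3.61 ± 1.64, on a mean count of 1.32 and with no adjusted p. Of all tested genes 3.0% were called higher and 8.35% lower, and nothing is read from the small counts in these lists.

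**Figure D3:**
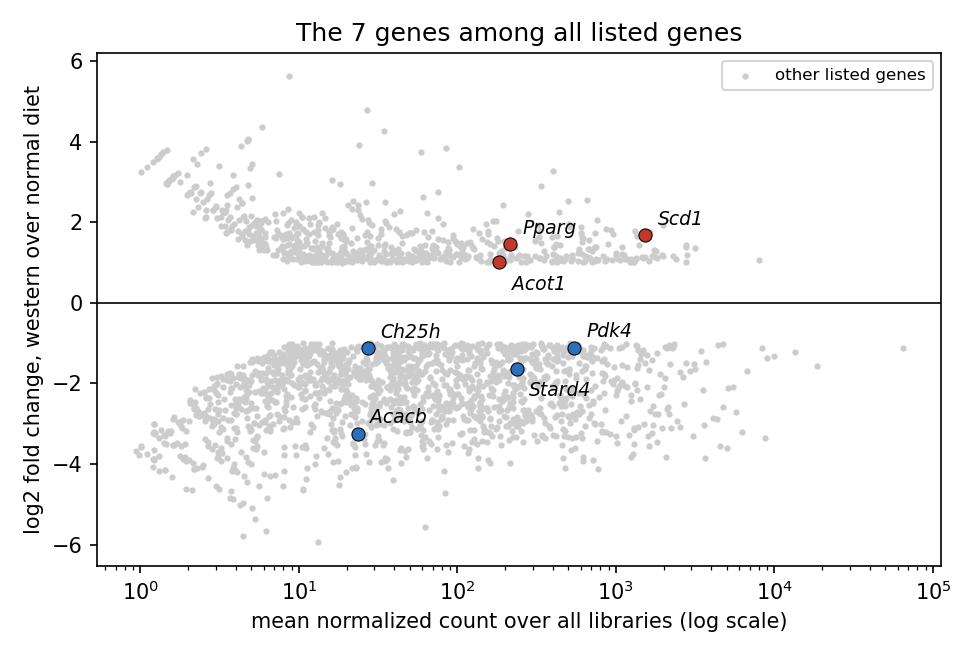
Mean normalized count over all libraries (horizontal axis, log scale) against log2 fold change (vertical axis) for the 2386 listed genes, with the 7 genes in colour (red higher, blue lower). The empty band around 0 is the fold limit of the listing, on whose edge Acot1 lies at 1.002, and Acacb and Ch25h are at the low counts of 23.5 and 27.2.

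Stard4 encodes a soluble carrier that moves cholesterol between membranes and is induced by SREBP2 (ENSMUSG00000024378, chromosome 18). Its mean count was 237 in the authors' deposited table, with implied means of 359 under normal and 115 under western diet. It had the smallest p of the 7, at rank 159 of all tested genes, and the smallest SE, 0.14 against a median of 0.21 for the 201 listed genes of like count. The 95% interval in the authors' deposited table was 2.59-fold to 3.76-fold lower (adjusted p 1.07e-30). No other gene of 26 cholesterol synthesis and uptake genes was listed, including the SREBP2 targets Hmgcs1, Sqle and Insig1.

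In the wider list of 25 START domain and sterol transfer genes, 2 rose and 2 fell, with Stard4, picked from the listed genes, among those that fell. The shares over all tested genes were 3.0% higher and 8.35% lower, and nothing is read from these counts. Stard8, whose product carries a START domain, fell by 1.76 ± 0.11 in log2 units with an adjusted p of 3.59e-54 in the authors' deposited table. Stard13, of the same family, was instead higher, at 1.08 ± 0.35 (adjusted p 0.0104 in the authors' deposited table). Osbpl3, an oxysterol-binding protein relative, was higher by 1.12 ± 0.21 (adjusted p 2.18e-06 in the authors' deposited table).

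Ch25h encodes cholesterol 25-hydroxylase, an interferon-inducible enzyme of macrophages (ENSMUSG00000050370, chromosome 19, 34473778 to 34475164). Its mean count was 27.2 in the authors' deposited table, which implies 37.2 under normal and 17.1 under western diet. It was the least firmly resolved of the 7: its 95% interval ran from 1.32-fold to 3.58-fold lower (log2 -1.12 ± 0.37, adjusted p 0.0102 in the authors' deposited table). At rank 3698 by p among tested genes it lay far behind the other 6, whose ranks ran from 159 to 2572. Ch25h is overlapped by the noncoding gene Gm26902, and its neighbour Lipa, the lysosomal acid lipase gene, was not listed. Of 13 oxysterol and bile acid genes, Nr1h4, the bile acid receptor FXR, was the other one listed, and it fell by 1.76 ± 0.49 in log2 units (adjusted p 0.00198 in the authors' deposited table). Gpr183, the receptor for an oxysterol made from 25-hydroxycholesterol, and the LXR genes Nr1h2 and Nr1h3 were not listed. None of 15 efflux, esterification and lipoprotein genes, such as Abca1, Abcg1 and Apoe, was listed.

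Over all 11 lipid lists, and leaving out the 7 genes, the authors' deposited table has 4 of 214 genes higher and 8 lower. These are 1.87% and 3.74%, against 3.0% and 8.35% of all tested genes. With the 7 kept in, 7 of 221 genes were higher and 12 lower. All 7 were called and were picked from the listed genes, so leaving them out could only lower the shares. Nothing is therefore read from the difference to all tested genes. The lists were written with earlier results of these data known, and every list gene is counted as if it had been tested.

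**Figure D4:**
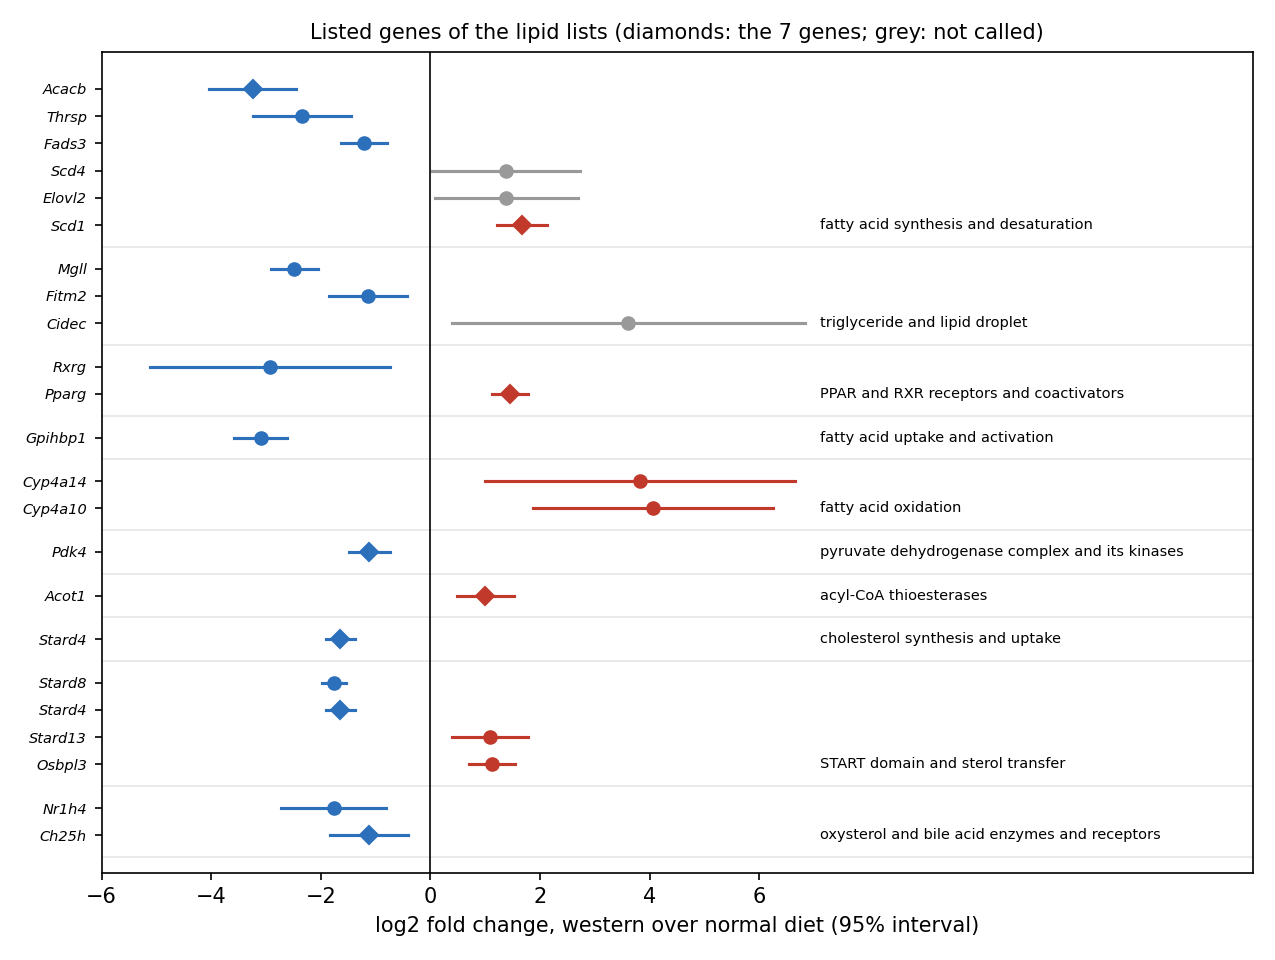
Log2 fold change (horizontal axis, western over normal diet) with its 95% interval for every listed gene of the lipid lists, grouped by list, with diamonds for the 7 genes, red for higher, blue for lower and grey for genes without an adjusted p below 0.05. Stard4 appears in 2 lists. The rises of Cyp4a10 and Cyp4a14 carry wide intervals, while those of Scd1 and Pparg are narrower.

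The authors' own enrichment covers genes with a positive fold change, so that Acacb, Pdk4, Stard4 and Ch25h could not enter it. Fatty acid metabolic process held Pparg, Scd1 and Acot1 among 10 genes at 4.10-fold enrichment (Benjamini p 0.0189 in the authors' deposited table), and 7 of the 10 were called. The called genes included Cyp4a10, Cyp4a12a and Ptgs2, the prostaglandin synthase gene. Lipid metabolic process held Scd1 and Acot1 among 20 genes, 14 of them called, at 3.07-fold in the authors' deposited table (Benjamini p 0.00145). The KEGG term PPAR signaling pathway held Pparg and Scd1 among 6 genes (Benjamini p 0.0384 in the authors' deposited table), and the other 4 were Cyp4a10, Cyp4a12a, Cyp4a14 and Scd4. The mean counts of these 4 ran from 2.58 to 5.78, and 5 of the 6 genes were called, all but Scd4. Biosynthesis of unsaturated fatty acids held Scd1 and Acot1 among 4 genes with a Benjamini p of 0.0502 in the authors' deposited table, and 2 of the 4 were called.

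Terms outside lipid metabolism held these genes too. Pparg was among 41 genes of inflammatory response (9.22-fold, Benjamini p 2.94e-23 in the authors' deposited table) and 59 of signal transduction (4.12-fold, Benjamini p 5.04e-17). Scd1 was among 23 genes of response to bacterium (6.90-fold, Benjamini p 5.78e-10 in the authors' deposited table) and 13 of defense response to Gram-positive bacterium (6.43-fold, Benjamini p 6.03e-05). Both stood among the 6 genes of brown fat cell differentiation (12.6-fold, Benjamini p 0.00364 in the authors' deposited table). In all, 9 GO terms with a Benjamini p below 0.05 held Pparg, 5 held Scd1 and 2 held Acot1, of 132 such terms in the authors' deposited table.

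Markers of other cell types moved in the same comparison, in both directions. Of 117 distinct markers, 28 were called higher (23.9%) and 22 lower (18.8%), against 3.0% and 8.35% of all tested genes. The marker lists were written with earlier results of these data known. In the authors' deposited table, 13 of 14 sinusoidal endothelial markers fell, with log2 fold changes from -4.12 to -1.68, and the fall of Acacb lies within that range while those of Stard4, Pdk4 and Ch25h were smaller in size. The implied means of those 13 markers sum to 75179 under normal and 10061 under western diet. Of 12 stellate and fibroblast markers 7 fell, from -2.19 to -1.18 in the authors' deposited table, with implied sums of 4747 and 1328. The fall of Stard4 lies within this range, that of Acacb was larger in size and those of Pdk4 and Ch25h were smaller. On the higher side in the authors' deposited table were 6 of 10 monocyte markers (1.13 to 2.55), 8 of 15 T and NK cell markers (1.15 to 1.73) and 6 of 10 dendritic cell markers (1.29 to 2.05). The values of Pparg and Scd1 fall inside each of these ranges, and that of Acot1 lies below them. The dendritic cell marker Zbtb46 was lower instead, and the authors' deposited table puts it at -1.13. Implied sums over listed markers went from 3312 to 10030 for monocytes, from 975 to 2827 for T and NK cells and from 2016 to 5122 for dendritic cells. Of 15 hepatocyte markers 3 rose in the authors' deposited table (1.19 to 3.91), a range that also holds the values of Pparg and Scd1 but not that of Acot1. The implied sum over the 4 listed was 736 under normal and 1830 under western diet. Ass1 alone made up 615 and 1402 of these, and Alb was not listed. Of 6 mast cell markers 5 rose in the authors' deposited table and Kit fell. Neither of the 2 listed adipocyte markers, Cidec and Cfd, had an adjusted p, and the other adipocyte markers, among them Adipoq and Lep, were not listed. None of 8 neutrophil markers was listed, and the 1 listed cholangiocyte marker of 8, Pkhd1, did not pass. Of 12 Kupffer cell markers only Cdh5, which endothelium also expresses, was listed, so the labelled cell type could not be checked on levels. The part of these cell types in the values of the 7 lipid genes was not tested.

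**Figure D5:**
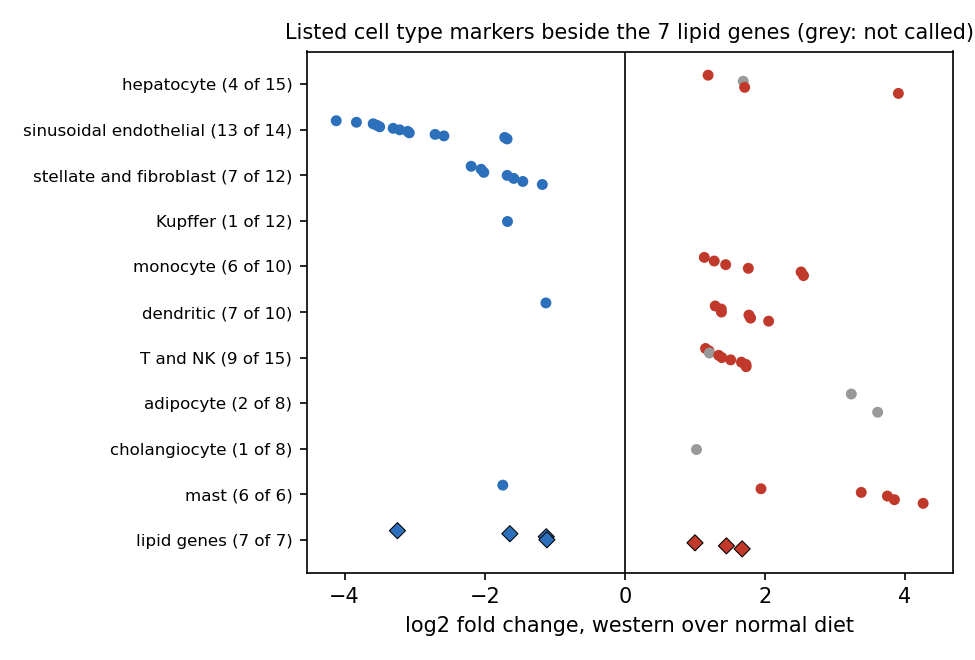
Log2 fold change (horizontal axis, western over normal diet) of every listed marker of each cell type, with the number listed of those in the list, and of the 7 lipid genes as diamonds (red higher, blue lower, grey without an adjusted p below 0.05). The 13 listed sinusoidal endothelial markers lie between -4.12 and -1.68, and the monocyte markers between 1.13 and 2.55.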

How the data were processed

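RNA from liver macrophages of mice on a normal or a western diet was sequenced (4 libraries each, grouped by the diet label). The submitters' processing notes name the build mm10 and, with no roles or versions, STAR, STAR-Fusion, HISAT2, StringTie, featureCounts, DESeq and edgeR. The table used here holds no value for any single library, so depth per library is unknown and precision is given by the authors' SE. Per the file headers, its deposited signal is the base mean (normalized reads averaged over libraries), and its other deposited values are the log2 fold change with its SE on the log2 scale, the test score (fold change over SE), the p-value and the adjusted p-value, under the names DESeq2 gives them. The authors' fold enrichment ratio and Benjamini p-value per term are deposited beside them. Every listed gene had p below 0.05 and an absolute log2 fold change above 1.

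From these were computed normal 95% intervals, implied group means, and the number of tested genes: 17531, the whole number that made 91.0% of Benjamini-Hochberg ranks whole within 0.02 (tested on simulated data with 15000 genes, where 15000 was recovered). A gene is called at an adjusted p below 0.05, and no new test was run. The members and lists were chosen with earlier results of these data known. Named are all 7 genes, every listed gene of the 11 lipid lists, and terms by smallest Benjamini p or by lipid metabolism, the latter chosen after the values were seen. Of the lipid list symbols, 220 of 221 are in GENCODE M21 (GRCm38, the same assembly as mm10). So are 115 of 117 marker list symbols and all 2386 listed identifiers. A symbol absent from GENCODE M21 may not have been matched, yet it stays in the total of its list. Coordinates and exon lengths come from GENCODE M21. RefSeq promoter windows were matched by symbol for 5 of the 7 genes, chromosome 18 not used. Alternatives were stricter and looser calls, shrinkage and a shorter window. Python 3.11.15, pandas 2.3.3, numpy 2.4.6 and scipy 1.17.1 were used.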

Additional observations from a re-analysis of the deposited data

How the results depend on the processing

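The alternatives limit calls or shrink values toward 0 and so could not turn a direction. An unadjusted p below 0.05 and a mean count of at least 10 could remove none of the 7 genes. Every listed gene had p below 0.05, and the lowest mean count of the 7 was 23.5, that of Acacb. Ch25h was lost at an adjusted p below 0.01, Ch25h and Acot1 were lost with a Bonferroni correction, and Pdk4, Ch25h and Acot1 were lost when the 95% interval had to lie wholly beyond 2-fold, which left 2 of the 4 lower genes. Shrinking the fold changes moved Acacb most, from -3.25 to -3.13. The prior for this came from the listed genes alone, all with an absolute log2 fold change above 1. Its variance of 4.626 was therefore wide, and the shrinkage could move values only a little. Of the other lipid list genes, 4 were higher and 8 lower; the higher ones numbered 2 at an adjusted p below 0.01, 7 at an unadjusted p below 0.05, 1 with Bonferroni, 2 beyond 2-fold and 2 at a mean count of at least 10, and the lower ones 5 with Bonferroni and 4 beyond 2-fold. Of 28 higher cell type markers, 18 were left with Bonferroni and 14 beyond 2-fold. These changes follow from the stricter or looser limits themselves. The 8 motif and window matches were the same in the 250 bases before the start. No paired analysis was possible because the table holds no values per library, and for the same reason no library could be left out and no other normalization or filter tried. The table gives no depth, so limits of detection cannot be stated.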
